A study of Mus musculus with 2 samples.

Results

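The genes described here are 10 members of the fibroblast growth factor (FGF) and hepatocyte growth factor (HGF) systems in the anterior eye segment of the mouse: the ligands Fgf1, Fgf2, Fgf7, Fgf10, Fgf18 and Hgf, and the receptors Fgfr1, Fgfr2, Fgfr3 and Met. They were chosen by symbol, and each symbol matched a single one of the 32285 genes counted in both libraries. One library came from Foxc2fl/fl control mice, which carry loxP-flanked Foxc2 alleles, and the other from NC-Foxc2-/- mice, in which the same alleles are removed by Wnt1Cre, a Cre recombinase active in the neural crest and in the tissues that descend from it. Both groups were 4 wk old by the sample labels and 3 to 4 wk old by the protocol, on a mixed strain, and each library pooled the tissue of 4 to 6 mice, with the iris removed and mutant mice of moderate ocular phenotype taken. With 1 library per condition no test between conditions was possible. Mice within a pool could not be told apart, so every difference below is one between 2 libraries and every 95% interval covers counting error only. In TM-1 the study lists Xist, a gene expressed in females, as higher and the Y-linked Ddx3y as lower in NC-Foxc2-/-. The sex makeup of the pools may therefore differ, and its part in any result was not tested.

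FGFs are secreted proteins that bind tyrosine kinase receptors together with heparan sulphate, and the receptors pass the signal through the adaptor FRS2 and the ERK kinases. HGF is secreted as an inactive precursor, is cut by serine proteases and binds the receptor MET. In many organs the ligands come from mesenchyme and the receptors lie on neighbouring epithelium, and in the cornea FGF7 and HGF are textbook examples of factors that pass from stromal cells to the epithelium. Both pathways switch on their own inhibitors of the Sprouty, Spred and Dusp families. The question asked of the counts was which cells of the anterior segment hold the ligand messages, which hold the receptor messages, and how far each differed between the libraries.

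The level of a gene is its number of unique molecular identifiers (UMIs, counts of captured molecules) per 1000000 UMIs of the cells of a class (CPM). After the study's limit on mitochondrial UMIs, the control library held 10773 cells and 119599692 UMIs, and the NC-Foxc2-/- library 10872 cells and 94644512 UMIs, with medians of 7663 and 6517 UMIs per cell. The libraries shared 52 barcodes, whose part in the results was not tested. Cells fell into 20 classes. Fibroblasts, uveal meshwork, trabecular meshwork (TM-1, TM-2, TM-3) and endothelial cells carry the study's own names, and classes ending in "-like" were named here from markers. The 6 stromal classes were keratocyte-like cells, the 3 TM classes, uveal meshwork and fibroblasts. Epithelium was made up of 3 classes: corneal, limbal and conjunctival epithelial-like cells. Foxc2 itself, the gene that was deleted, fell from 130.4 to 2.42 CPM in pericyte-like cells, from 68.6 to 13.0 CPM in uveal meshwork and from 46.7 to 0.67 CPM in fibroblasts. In keratocyte-like cells, where control Foxc2 was low, it was 4.23 CPM in control against 9.70 CPM in NC-Foxc2-/-, against the direction of the deletion.

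4 classes need a caution before their values are read. Limbal epithelial-like cells included 33.2% called doublets in control and 27.6% in NC-Foxc2-/-, and they held 2789 and 2738 CPM of the stromal gene Dcn, against 33.8 and 74.3 CPM in corneal epithelial-like cells. Retinal-like cells held 12233 and 14439 CPM of Dcn, a stromal level. Melanocyte-like cells differed in makeup, with the melanocyte gene Mlana at 4289 and 490 CPM and the pigment epithelium gene Rlbp1 at 355 and 868 CPM. Conjunctival epithelial-like cells numbered 441 in control and 21 in NC-Foxc2-/-. Corneal endothelial-like cells numbered 170 and 9, so the NC-Foxc2-/- values of that class are given but not compared.

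Promoter sequences are shown for Hgf and Fgf10, each a ligand with 1 highest class below, because FOXC2 is a forkhead factor and theirs were the promoters of the set that held the forkhead core TAAACA, searched on both strands with its reverse complement TGTTTA. The windows run from 250 bases before to 50 bases after the RefSeq start (GRCm38.p6), and RefSeq windows were found for 8 of the 10 genes. The core, in capitals, starts 23 bases before the start of Hgf on the forward strand and 11 bases before that of Fgf10 on the reverse strand.
Hgf, chr5:16553245-16553544, plus strand: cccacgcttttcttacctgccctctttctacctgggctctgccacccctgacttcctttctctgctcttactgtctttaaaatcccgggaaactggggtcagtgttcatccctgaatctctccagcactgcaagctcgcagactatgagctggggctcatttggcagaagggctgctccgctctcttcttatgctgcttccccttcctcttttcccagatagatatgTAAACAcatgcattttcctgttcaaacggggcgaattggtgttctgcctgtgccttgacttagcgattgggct
Fgf10, chr13:118714449-118714748, plus strand: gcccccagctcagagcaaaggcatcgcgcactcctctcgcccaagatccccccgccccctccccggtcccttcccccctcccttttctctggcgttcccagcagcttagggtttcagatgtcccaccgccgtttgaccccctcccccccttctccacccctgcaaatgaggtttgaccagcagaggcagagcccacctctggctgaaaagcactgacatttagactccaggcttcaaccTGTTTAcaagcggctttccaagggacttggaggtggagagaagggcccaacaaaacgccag
A second RefSeq window of Hgf also held it, 141 bases before its start. The same letters occur in 13.4% of all 32851 RefSeq windows, so the match is a description of these letters and not a binding site.

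Fgf2, a broadly acting FGF without a classical secretion signal, was the ligand that passed 2-fold between the libraries in the most classes, 3 of 11 with enough counts. Keratocyte-like cells of the control library held 53.6 CPM (95% interval 50.9 to 56.5) and those of the NC-Foxc2-/- library 86.1 CPM (83.2 to 89.1), a ratio of 1.61 (1.51 to 1.71). In fibroblasts it was 78.3 CPM in control against 145.1 CPM in NC-Foxc2-/-, 1.85 (1.61 to 2.14). The NC-Foxc2-/- value was thus above the control value with separate intervals in both of these cell types.
In the meshwork, with control first, TM-1 held 19.7 and 36.5 CPM of Fgf2, while TM-2 held 56.8 and 76.5 CPM. TM-3 was at 32.1 and 65.2 CPM, and uveal meshwork was at 20.1 and 45.5 CPM. TM-3 and uveal meshwork reached 2-fold, with ratios of 2.03 (1.72 to 2.41) and 2.27 (1.77 to 2.90). Both calls were lost with classes taken from the rebuilt clusters, at 1.88 and 1.97, and after thinning to 1000 UMIs per cell, at 1.95 and 1.66. TM-3 also fell below 2-fold when scaled to the median ratio of its class, at 1.95. The makeup of TM-3 differed between the libraries, as given under Fgfr3 below, and its part in the Fgf2 ratio was not tested. TM-2 had a ratio of 1.35 whose interval, 0.95 to 1.92, includes 1. The highest Fgf2 level of any class was that of Schwann cell-like cells, at 119.3 CPM in control against 214.9 CPM in NC-Foxc2-/-, 1.80 (1.48 to 2.20). Epithelium was nearly free of it: corneal epithelial-like cells had 13 UMIs in 1009 control cells and 6 UMIs in 333 NC-Foxc2-/- cells. Thinned to 1000 UMIs per cell, 5.64% of control and 7.47% of NC-Foxc2-/- keratocyte-like cells had an Fgf2 UMI, against 44.6% and 54.5% unthinned, and erythrocyte-like cells, which should lack the gene, were at 0 and 0.34% thinned. Median depth was 15954 and 14565 UMIs in keratocyte-like cells and 4015 and 4085 UMIs in erythrocyte-like cells.
The retinal-like value, 33.8 CPM in control against 122.6 CPM in NC-Foxc2-/- (3.62, 1.80 to 8.26), stands beside the stromal Dcn of that class given above. Its part in the result was not tested.

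Fgf18, an FGF known from cartilage and bone, was spread through the stroma. TM-3 had the highest level in both libraries, 120.5 CPM in control against 104.8 CPM in NC-Foxc2-/-, and keratocyte-like cells held 85.1 and 92.3 CPM. TM-1 had less in NC-Foxc2-/-, 56.8 CPM (48.4 to 66.2) against 96.4 CPM (86.7 to 107.0) in control, a ratio of 0.59 (0.49 to 0.71). Fibroblasts had more, 97.0 against 63.2 CPM, 1.54 (1.31 to 1.81). The order over both libraries was TM-3, keratocyte-like cells, fibroblasts, TM-1, uveal meshwork and TM-2, and keratocyte-like cells, fibroblasts and TM-1 could not be ordered among themselves, since the ratios of neighbours were 1.05 (0.98 to 1.13) and 1.07 (0.96 to 1.201). Within keratocyte-like cells the smaller of 2 clusters held more than the larger, 137.2 against 64.8 CPM in control and 154.3 against 66.5 CPM in NC-Foxc2-/-. Macrophage-like cells rose past 2-fold, from 9.9 to 22.9 CPM (2.31, 1.51 to 3.61), a ratio that was 1.96 without called doublets and 1.64 as a mean of single-cell CPM. That class held 4006 and 4023 CPM of Dcn and 5.19% and 8.62% called doublets in control and NC-Foxc2-/-, and the part of these in the result was not tested.

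Fgf7, also called keratinocyte growth factor, was a fibroblast and smooth muscle message. Fibroblasts held 53.0 CPM (45.4 to 61.4) in control against 71.7 CPM (65.1 to 78.9) in NC-Foxc2-/-, and smooth muscle-like cells 48.3 and 71.2 CPM. The ratios were 1.35 (1.13 to 1.62) and 1.47 (1.17 to 1.86). All meshwork classes lay between 13.7 and 23.8 CPM in both libraries. Keratocyte-like cells, the cells that neighbour the corneal epithelium, held 1.77 CPM in control against 2.27 CPM in NC-Foxc2-/-. Fgf7 was thus low in the most numerous stromal class, and no UMI of it was found in 207 control or 253 NC-Foxc2-/- endothelial cells.

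Fgf10, a close relative of FGF7 that acts on the same receptor isoform, was concentrated in corneal endothelial-like cells, the cell layer that lines the back of the cornea. It measured 165.4 CPM (152.1 to 179.6) in control against 121.4 CPM (68.0 to 200.3) in the 9 NC-Foxc2-/- cells, and 82.4% of control cells had a UMI of it. The next class, TM-3, held 14.7 and 11.7 CPM, so over both libraries the corneal endothelial-like level was 12.6 times (10.6 to 14.9) that of TM-3. Keratocyte-like cells held 4.16 and 4.72 CPM. Within TM-3 the control values were 16.6 CPM in the larger and 1.8 CPM in the smaller of the 2 main clusters. In NC-Foxc2-/- they were 12.9 and 13.1 CPM. The smaller cluster had few control cells and the values are given without intervals, so no dependence on the cluster is read from them.

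Fgf1, a ligand that can bind every FGF receptor, was nearly absent from stroma, with 25 UMIs in control and 46 UMIs in NC-Foxc2-/- over the 6 stromal classes. In control its highest level was in corneal endothelial-like cells, at 27.6 CPM (22.3 to 33.7), followed by melanocyte-like cells at 11.9 CPM.
Pericyte-like cells, the contractile cells on small vessels, differed most. There Fgf1 gave 5 UMIs in 5 of 381 control cells and 96 UMIs in 73 of 537 NC-Foxc2-/- cells, which is 3.05 CPM (0.99 to 7.11) against 38.7 CPM (31.3 to 47.3), a ratio of 12.7 (5.26 to 40.0). The NC-Foxc2-/- UMIs were spread over many cells, with 58 cells at 1 UMI, 11 cells at 2 UMIs and 4 cells at 3 or more. The share of cells with a UMI was 1.31% (0.43 to 3.04) and 13.6% (10.8 to 16.8). With each cell thinned to 1000 UMIs, a UMI was left in 0 of 361 control cells, which at that lower depth allows a share of up to 0.831%, and in 3.58% of 530 NC-Foxc2-/- cells. Median depths were alike, 4088 and 4194 UMIs, and Fgf1 had no UMI in any of 974 control and 647 NC-Foxc2-/- erythrocyte-like cells or 520 and 615 macrophage-like cells. Pericyte-like cells were also the class with the highest control level of Foxc2. The pericyte gene Rgs5 was 5732 and 4441 CPM there. Stromal Dcn was 322 and 815 CPM in the class, and Fgf1 in the stromal classes was at most 4.13 CPM. The part of stromal RNA in the result was not tested.
A further split of the class, chosen after these values were seen, separated cells without any UMI of the chemokine genes Ccl2, Ccl7 and Ccl11 from the rest. Cells without one made up 49.3% of the class in control and 60.9% in NC-Foxc2-/-, and in them Fgf1 gave 3 and 82 UMIs, or 3.80 CPM (0.78 to 11.1) and 56.3 CPM (44.8 to 69.9). In the rest it gave 2 and 14 UMIs, or 2.35 CPM (0.28 to 8.47) and 13.7 CPM (7.47 to 22.9). In both parts the NC-Foxc2-/- value was above the control value. The intervals were apart in the cells without a chemokine UMI. They overlapped in the rest, where control gave 2 UMIs, and overlap does not show that the values were alike.

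Hgf was a meshwork message. Uveal meshwork held 43.2 CPM (38.0 to 48.8) in control against 44.6 CPM (37.8 to 52.2) in NC-Foxc2-/-, TM-2 26.9 and 29.2 CPM, and TM-1 26.2 and 21.7 CPM. In uveal meshwork the ratio was 1.03 with an interval of 0.84 to 1.27. Over both libraries uveal meshwork stood above TM-2 by 1.55 (1.18 to 2.07), while TM-2 and TM-1 could not be told apart (1.16, 0.85 to 1.57).
Keratocyte-like cells were at the bottom of the stroma, with 6 UMIs in 1649 control cells and 24 UMIs in 2531 NC-Foxc2-/- cells. This is 0.22 and 0.63 CPM, from fewer UMIs than the count minimum of 50 over both libraries. Among the stromal classes that reached it, fibroblasts differed past 2-fold, with 11 UMIs and 3.31 CPM (1.65 to 5.93) in control, and 72 UMIs and 12.1 CPM (9.44 to 15.2) in NC-Foxc2-/-, a ratio of 3.64 (1.92 to 7.62). TM-3 was 7.51 and 11.3 CPM, 1.501 (1.04 to 2.19). In fibroblasts 10.9% of 9218 genes with at least 50 UMIs passed 2-fold in either direction, a larger share than in the other stromal classes, where it was 3.54% to 5.93%. Below the count minimum, limbal epithelial-like cells had 24 UMIs of Hgf in control and none in 170 NC-Foxc2-/- cells, and pericyte-like cells held 12.8 and 5.24 CPM.

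**Figure D1:**
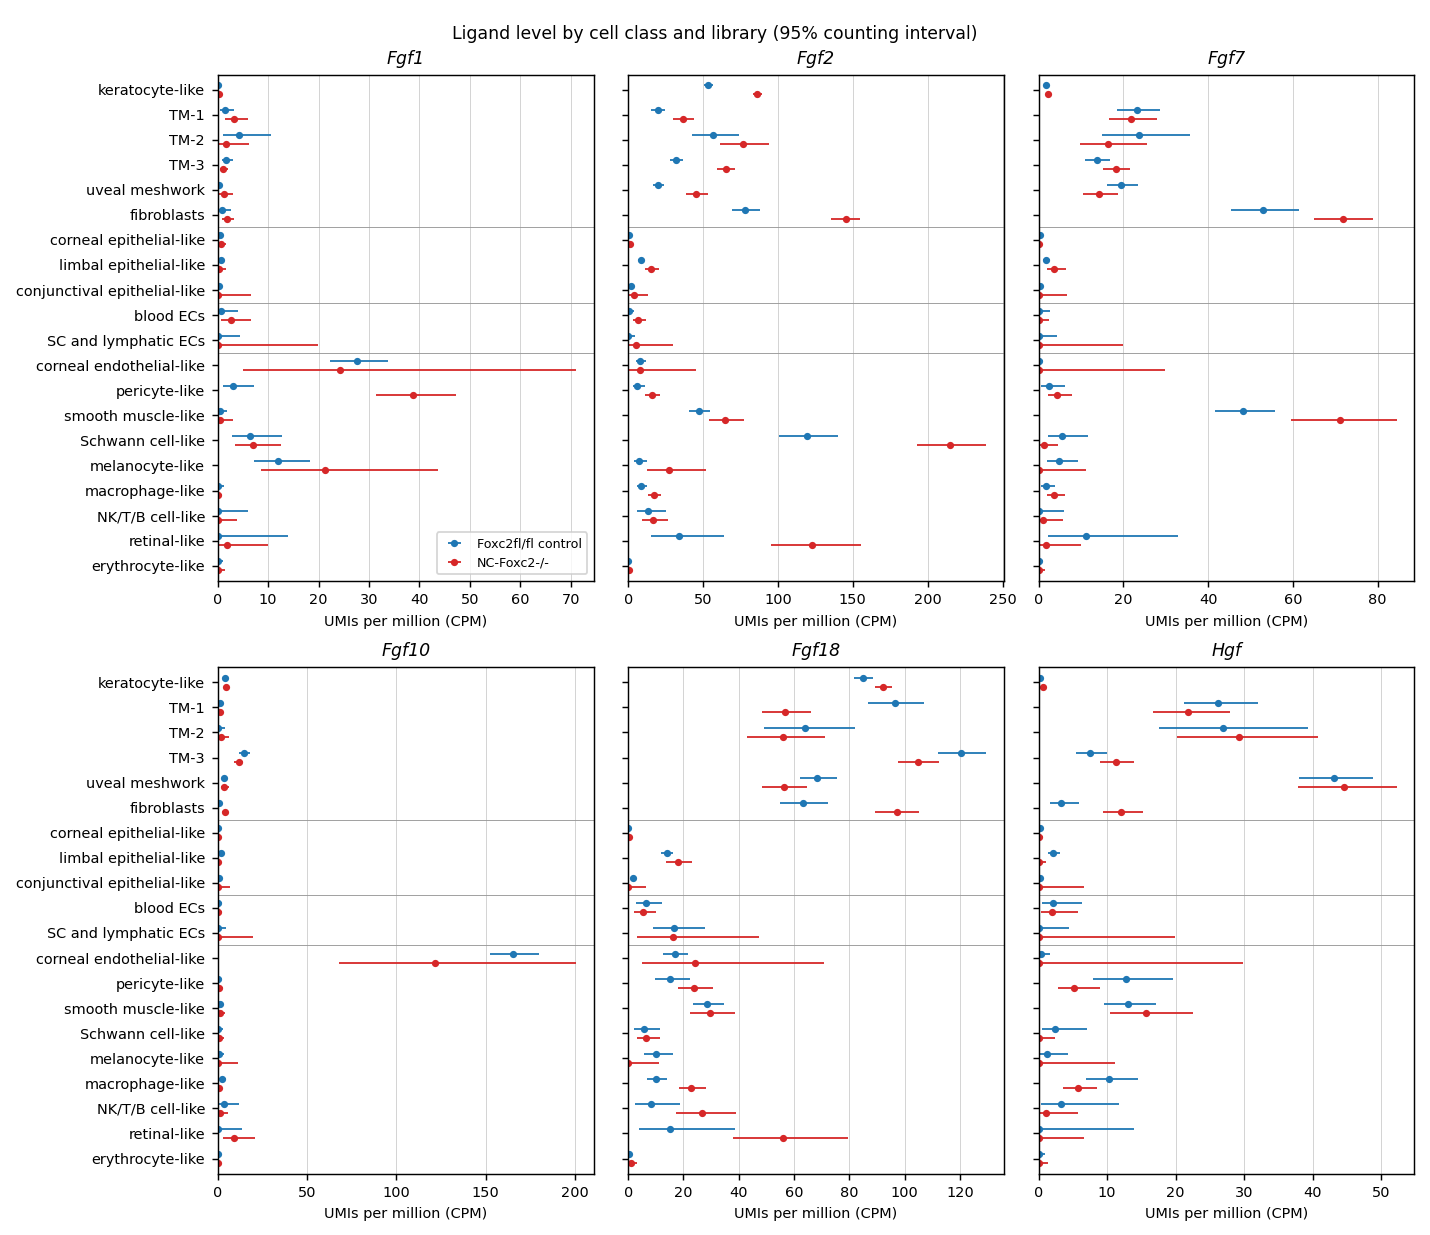
Level of each ligand in 20 cell classes, as UMIs per 1000000 UMIs of the class (CPM, linear axis from 0), with exact Poisson 95% intervals; blue is the control library and red the NC-Foxc2-/- library. Fgf10 peaks in corneal endothelial-like cells at 165.4 CPM in control, Hgf in uveal meshwork at 43.2 and 44.6 CPM, and Fgf1 in pericyte-like cells of the NC-Foxc2-/- library at 38.7 CPM.

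Fgfr1, the receptor typical of mesenchyme, was present in every stromal class. Levels in control ran from 390.1 CPM in uveal meshwork to 739.4 CPM in TM-2, and in NC-Foxc2-/- from 465.5 CPM in uveal meshwork to 833.5 CPM in fibroblasts. In keratocyte-like cells Fgfr1 was 510.1 and 710.7 CPM, 1.39 (1.37 to 1.42), and in fibroblasts 533.2 and 833.5 CPM, 1.56 (1.48 to 1.65). TM-1 and TM-2 had ratios of 0.96 (0.90 to 1.03) and 0.96 (0.87 to 1.06), intervals that include 1.
Corneal epithelial-like cells held 2.94 and 6.26 CPM of Fgfr1, against 2.14 and 5.02 CPM in erythrocyte-like cells, which should lack the gene. Their ratio of 2.13 (1.39 to 3.24) passed 2-fold, but was 1.95 without cells over 1% haemoglobin UMIs, an alternative chosen after seeing the data. The erythrocyte-like ratio was 2.34, with an interval of 0.90 to 6.53 that includes 1, and the part of free RNA in the corneal value was not tested. After thinning, 0.099% and 0.61% of corneal epithelial-like cells had a UMI, against 0.34% and 0.34% of erythrocyte-like cells. Limbal epithelial-like cells held 111.3 and 122.7 CPM of Fgfr1, beside the doublets and Dcn given above.
In the endothelium, Schlemm's canal (SC) and lymphatic endothelial cells held 183.0 CPM (155.2 to 214.2) in control against 274.4 CPM (204.3 to 360.7) in NC-Foxc2-/-, from 84 and 23 cells. Blood endothelial cells (BECs) pooled held 164.0 and 101.4 CPM, 0.62 (0.50 to 0.76). By subcluster, BEC-3 held 104.3 and 82.4 CPM from 28 and 39 cells, and BEC-4 107.7 and 43.2 CPM from 15 and 51 cells. The subclusters are small and their values are given without intervals, so no direction is read from them. BEC-5 was at 244.7 and 232.5 CPM and BEC-6 at 186.2 and 242.4 CPM, whereas BEC-1 was at 37.3 and 59.9 CPM and BEC-2 at 30.8 and 40.7 CPM. BEC-5 made up 43 of the 123 control blood endothelial cells and 14 of the 230 NC-Foxc2-/- ones, while BEC-2 made up 12 and 59. The 230 cells also included 22 cells at 76.6 CPM, named NC-Foxc2-/- ECs by the study, which had no counterpart in control. The part of this change in makeup in the pooled value was not tested.

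Fgfr2, whose epithelial isoform receives FGF7 and FGF10, was not confined to epithelium in these cells. The 3' counts do not tell its isoforms apart, and its span in the annotation holds other genes. Uveal meshwork had the highest level, 150.2 CPM in control against 167.1 CPM in NC-Foxc2-/-, followed by TM-1 at 87.0 and 88.7 CPM. Keratocyte-like cells held 10.2 and 14.0 CPM. Corneal epithelial-like cells held 46.7 CPM (43.8 to 49.8) in control against 71.0 CPM (64.5 to 77.9) in NC-Foxc2-/-, 1.52 (1.35 to 1.70), and limbal epithelial-like cells 39.1 and 53.9 CPM, 1.38 (1.15 to 1.65). Both epithelia were thus higher in NC-Foxc2-/-, but so were keratocyte-like cells (1.37) and smooth muscle-like cells (1.54). Conjunctival epithelial-like cells had a ratio of 0.99, and TM-1 and TM-2 had ratios of 1.02 and 1.00. Over all classes with enough counts the ratios ran from 0.62 in melanocyte-like to 1.79 in macrophage-like cells.

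Fgfr3, whose best known role is to restrain bone growth, was likewise present in both meshwork and epithelium. It was 40.8 and 62.0 CPM in uveal meshwork, 1.52 (1.26 to 1.83), and 32.4 and 24.3 CPM in TM-3, 0.75 (0.61 to 0.92). Corneal epithelial-like cells held 15.1 CPM in control against 25.2 CPM in NC-Foxc2-/- (1.67, 1.37 to 2.03), and limbal epithelial-like cells 36.7 and 23.6 CPM (0.64, 0.50 to 0.82). Keratocyte-like cells had 8 and 17 UMIs. Within TM-3 the larger cluster held 35.9 and 33.1 CPM and the smaller 3.7 and 2.6 CPM, and the smaller made up 108 of 852 control cells and 379 of 1142 NC-Foxc2-/- cells. The part of that share in the TM-3 total of Fgfr3, or in the TM-3 ratio of any other gene given here, was not tested.

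Met, the HGF receptor, was the receptor most concentrated in epithelium. Its level was 76.9 and 93.1 CPM in corneal, 69.5 and 78.1 CPM in limbal and 59.4 and 68.4 CPM in conjunctival epithelial-like cells, control first, with ratios of 1.21 (1.10 to 1.33), 1.12 (0.97 to 1.30) and 1.15 (0.81 to 1.59). Corneal endothelial-like cells held more, 137.3 CPM in control against 218.6 CPM in the 9 NC-Foxc2-/- cells. Keratocyte-like cells held 1.25 and 1.49 CPM. Of the stromal classes, TM-3, at 24.0 and 22.1 CPM, and fibroblasts, at 16.6 and 22.8 CPM, held the most Met.
In melanocyte-like cells Met went from 180.7 CPM (160.9 to 202.1) to 63.5 CPM (39.3 to 97.1), 0.352 (0.215 to 0.547), beside the fall of Mlana and the higher Rlbp1 of that class. The ratio was 0.71 with cells thinned and 0.51 as a mean of single-cell CPM. Of 5312 genes tested there, 20.1% passed 2-fold in either direction, and the part of the change in makeup was not tested.

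**Figure D2:**
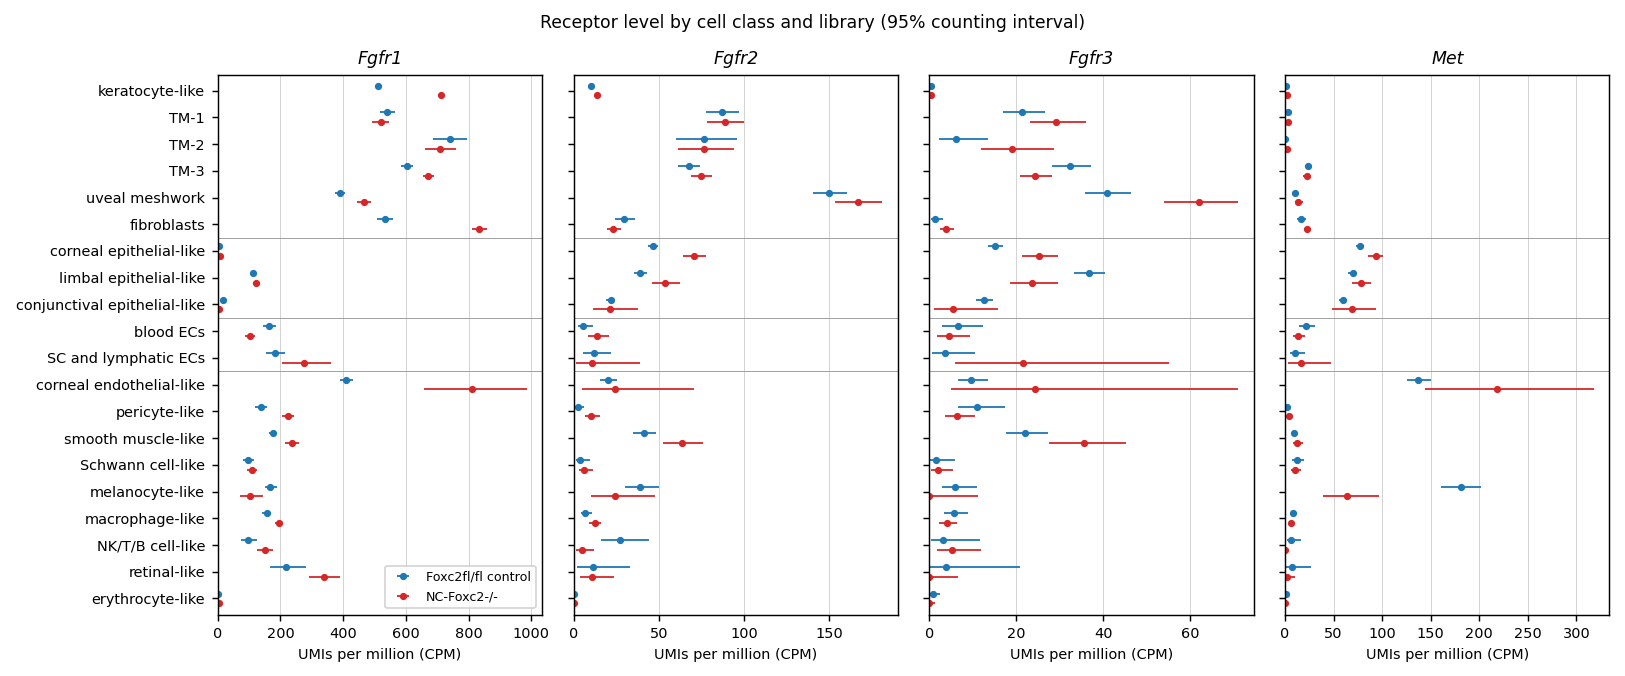
Level of each receptor in 20 cell classes, as UMIs per 1000000 UMIs of the class (CPM, linear axis from 0), with exact Poisson 95% intervals; blue is control and red NC-Foxc2-/-. Fgfr1 fills the 6 stromal rows at 390.1 CPM or more, Fgfr2 peaks in uveal meshwork at 150.2 and 167.1 CPM, and Met in the control library is highest in melanocyte-like (180.7 CPM) and corneal endothelial-like cells (137.3 CPM).

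Pooled over classes, 5 of the 6 ligands were at least 2-fold higher in stroma than in epithelium in both libraries. These were the 5 with at least 50 UMIs in each library. Of the 13227 genes with that count 31.6% were higher in stroma by the same rule. The stroma over epithelium ratio was 15.6 (13.1 to 18.8) in control against 14.6 (11.3 to 19.2) in NC-Foxc2-/- for Fgf2, 20.9 and 14.7 for Fgf18, 16.3 and 11 for Fgf7, and 8.43 (5.61 to 13.2) in control for Fgf10. In the NC-Foxc2-/- epithelium Fgf10 had 1 UMI, with a ratio of 52.2 (9.30 to 2069). Hgf was 13.5 times (9.38 to 20.1) higher in control stroma, and in NC-Foxc2-/- epithelium it had no UMI, which makes stroma at least 24.2-fold higher by a floor of 3 counts. Fgf1, with 44 and 51 UMIs, was under the minimum of 50 in control and so was not eligible. Its ratios were 1.24 (0.66 to 2.39) and 1.55 (0.62 to 5.01).
Of the 4 receptors only Met passed the opposite rule, at least 2-fold higher in epithelium than in stroma in both libraries, with ratios of 10.6 (9.44 to 11.96) and 12.4 (11.02 to 13.98), against 11.3% of genes. Fgfr3 was 1.73 (1.56 to 1.93) and 2.59 (2.21 to 3.02). Fgfr2 was 0.85 (0.80 to 0.91) in control against 1.73 (1.58 to 1.89) in NC-Foxc2-/-, so its higher side differed between the libraries. Pooled stromal Fgfr2 was 44.1 CPM in control against 36.3 CPM in NC-Foxc2-/-, while 5 of the 6 stromal classes had a ratio of at least 1.00 and fibroblasts had 0.79. The mix of classes differed too: uveal meshwork, the highest in Fgfr2, numbered 1025 and 592 cells, and keratocyte-like cells, the lowest, 1649 and 2531, and the part of this mix in the pooled ratio was not tested. Fgfr1 lay on the stromal side, 15.01 and 15.9 times higher in stroma. Pooled epithelium held 34.4 and 43.7 CPM of Fgfr1, above the corneal epithelial-like levels given above. The pool includes limbal epithelial-like cells, with the doublets and Dcn given above. Without them, an alternative chosen after seeing the data, the counts stayed at 5 ligands and 1 receptor. Their part in the size of the stroma and epithelium ratios was not tested. No receptor passed at 2-fold higher in endothelium than in stroma in both libraries, against 14.4% of the 12598 genes tested: Met came closest, at 2.67 (1.86 to 3.73) and 1.99 (1.26 to 3.00), while Fgfr1 was 0.33 and 0.17.

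**Figure D3:**
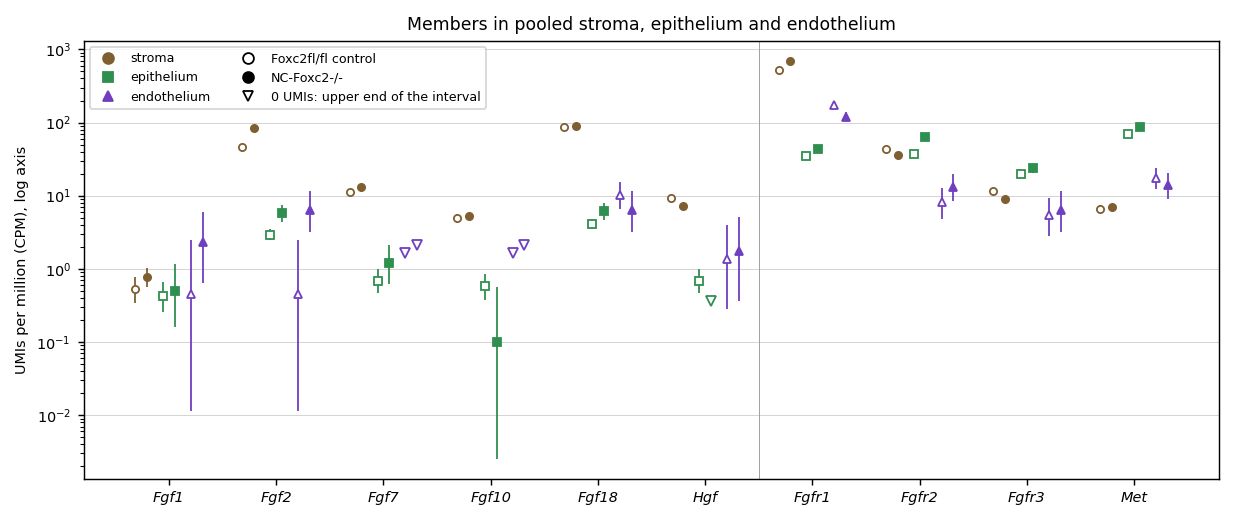
CPM of the 10 genes (log axis) pooled over the 6 stromal classes (circles), 3 epithelial classes (squares) and the endothelial cells (triangles), with exact Poisson 95% intervals; open symbols are control, filled symbols NC-Foxc2-/-, and downward triangles mark 0 UMIs at the upper end of the interval. Stroma lies above epithelium for every ligand but Fgf1, whose intervals overlap, and for Fgfr1. Met lies at 69.9 and 86.9 CPM in epithelium against 6.59 and 7.01 CPM in stroma. Epithelium includes limbal epithelial-like cells, with their called doublets and stromal Dcn.

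Across 19 classes with at least 20 cells in each library, 84 of the 190 member and class pairs had at least 50 UMIs over both libraries. Of these 84 pairs, 7 were at least 2-fold higher and 3 at least 2-fold lower in NC-Foxc2-/-. Over all genes of the same classes 3.3% of 134701 pairs were higher and 4.4% lower by the same rule, and the median ratio was 1.26 for the members against 0.98 for all genes. The 7 higher pairs were Fgf1 in pericyte-like cells, Fgf2 in TM-3, uveal meshwork and retinal-like cells, Fgf18 in macrophage-like cells, Hgf in fibroblasts and Fgfr1 in corneal epithelial-like cells. The 3 lower pairs were Fgfr1 and Fgfr3 in conjunctival epithelial-like cells, each from at most 3 UMIs in 21 NC-Foxc2-/- cells and the former with its direction turned when cells were thinned or weighted equally, and Met in melanocyte-like cells. In conjunctival epithelial-like cells 23.1% of 8796 genes passed 2-fold in either direction.
By class, the share of all genes higher in NC-Foxc2-/- was 5.62% in pericyte-like cells, 3.64% in TM-3, 2.06% in uveal meshwork, 7.06% in retinal-like cells, 2.16% in macrophage-like cells, 4.84% in fibroblasts and 2.06% in corneal epithelial-like cells, where the 7 pairs lie. The share of genes lower was 17.5% in conjunctival epithelial-like and 12.7% in melanocyte-like cells. The median ratio over all genes of a class lay within 0.1 of 0 on the log2 scale except in limbal (-0.14) and conjunctival epithelial-like cells (-0.24) and in erythrocyte-like cells (0.18).

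**Figure D4:**
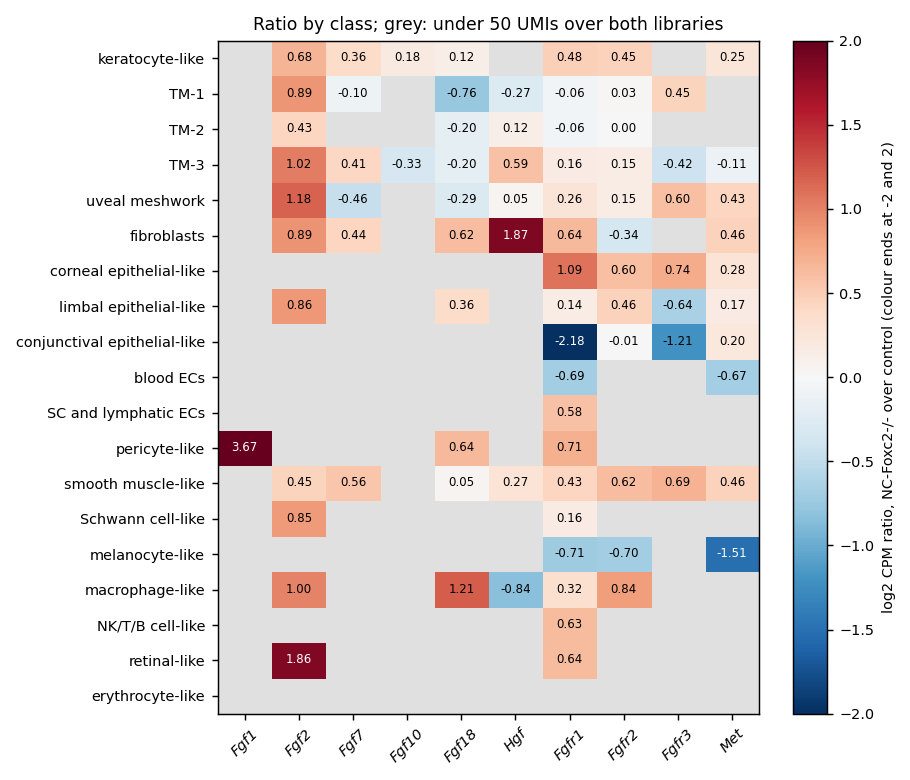
log2 of the CPM ratio NC-Foxc2-/- over control for the 10 genes in 19 classes, red for higher and blue for lower in NC-Foxc2-/-; grey marks pairs with under 50 UMIs. Fgf2 is above 0 in every class where it is shown, Fgf1 in pericyte-like cells is the strongest at 3.67 (beyond the end of the colour scale), and Fgfr1 is above 0 in 13 of the 18 classes shown.

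The other genes of the pathways were taken from 7 lists of 91 genes. Of 756 gene and class pairs with at least 50 UMIs, 34 were at least 2-fold higher and 23 at least 2-fold lower in NC-Foxc2-/-, with a median ratio of 1.09. Over all genes 3.3% of pairs were higher and 4.4% lower, with a median ratio of 0.98. The counts of each list below are to be read against these shares, and no list was tested against them. For the classes named below and not given above, the share of all genes higher was 2.3% in keratocyte-like, 1.23% in limbal and 5.59% in conjunctival epithelial-like cells. The share lower was 1.33% in keratocyte-like cells, 2.29% in TM-3, 6.09% in fibroblasts, 2.07% in corneal and 6.49% in limbal epithelial-like cells. Among the other FGF ligands 8 pairs had the counts, 1 higher and 1 lower. The only one of them with more than 2 CPM in stroma was Fgf21, better known as a liver hormone, at 124.9 CPM in control against 139.2 CPM in NC-Foxc2-/-. It was also the called gene in both directions, at 3.20 and 7.52 CPM in TM-3 (2.35, 1.39 to 4.14) and with 111 and 0 UMIs in conjunctival epithelial-like cells. Keratocyte-like cells held 215.0 and 212.4 CPM of Fgf21 and macrophage-like cells 25.8 and 26.6 CPM, both above the TM-3 level. The part of free RNA in the 2 calls was not tested.
The co-receptors held no higher and 6 lower pairs of 147, and were led by the syndecan gene Sdc4, at 1546 and 1294 CPM in stroma and 1747 and 1666 CPM in epithelium, with Sdc2 second in stroma and Sdc1 second in epithelium. In the endothelium Hspg2, which encodes the basement membrane proteoglycan perlecan, was first at 457.3 and 410.7 CPM. In limbal epithelial-like cells Flrt3, a membrane protein that binds FGF receptors, was 27.2 and 11.8 CPM, 0.432 (0.3003 to 0.607). Its relative Flrt2 gave 439 UMIs in control and 0 in the 21 NC-Foxc2-/- conjunctival epithelial-like cells.
Adaptor genes held 3 higher and 0 lower pairs of 99. Grb2 and Ptpn11, which pass the signal from the receptor complex to RAS, were the highest in all 3 groups, Grb2 at 90.3 and 85.6 CPM in stroma. Frs3 rose in keratocyte-like cells from 3 to 52 UMIs, 12.3 (3.97 to 61.5), at a level of 0.11 and 1.36 CPM.

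Feedback and target genes of FGF and ERK signalling held 9 higher and 7 lower pairs of 228, with a median ratio of 1.08. The immediate early genes Egr1 and Ier2 were the highest in stroma, at 395.0 and 371.2 CPM and at 325.8 and 237.1 CPM. Ccnd1, which encodes cyclin D1, was first in epithelium at 286.0 and 233.6 CPM, and in fibroblasts it fell from 82.2 to 28.2 CPM (0.34, 0.28 to 0.42). Etv4, a transcription factor gene that FGF signalling induces, was 5.53 and 2.25 CPM in corneal epithelial-like cells, 0.406 (0.215 to 0.711).
Genes that edit heparan sulphate held 3 higher and 3 lower pairs of 112. The 6-O-endosulfatase gene Sulf1 and the sulfotransferase gene Ndst1 were the highest in stroma, and Hs6st1, another sulfotransferase gene, in epithelium. Sulf2 in TM-3 rose from 15.02 to 32.3 CPM (2.15, 1.69 to 2.76), and the chain-building gene Ext1 in corneal epithelial-like cells from 5.14 to 12.04 CPM (2.34, 1.72 to 3.18).

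The list of HGF activators and inhibitors had the most higher pairs, 14 higher and 4 lower of 68, with a median ratio of 1.27. Plau, the gene of urokinase, which can cut the HGF precursor, rose in fibroblasts from 3.61 to 11.2 CPM (3.11, 1.67 to 6.31), in corneal epithelial-like cells from 8.07 to 18.3 CPM (2.27, 1.77 to 2.90) and in limbal epithelial-like cells from 7.20 to 18.3 CPM (2.54, 1.78 to 3.59). Spint2, an inhibitor of HGF activator proteases, was the highest of the list in epithelium at 444.1 and 405.1 CPM, followed by its relative Spint1 at 72.1 and 69.7 CPM. Spint2 fell in keratocyte-like cells from 3.39 to 1.10 CPM (0.323, 0.219 to 0.471). In TM-3 it fell from 13.9 to 6.31 CPM (0.454, 0.311 to 0.654). These levels are low beside its own in epithelium. Corneal epithelial-like cells made up 9.37% of control and 3.06% of NC-Foxc2-/- cells. The part of free epithelial RNA in the Spint2 falls was not tested. The protease gene Tmprss13 fell in limbal epithelial-like cells from 16.9 to 8.37 CPM (0.496, 0.319 to 0.745). In conjunctival epithelial-like cells the protease gene Prss8 was 31.5 and 160.2 CPM, from 21 NC-Foxc2-/- cells.
MET partners held 4 higher and 2 lower pairs of 94. Cd44, which can present HGF to MET, led the list in stroma at 176.3 and 233.6 CPM and in epithelium at 166.3 and 215.1 CPM. Itgb4, the hemidesmosome integrin gene, was 139.0 and 194.5 CPM in epithelium and fell in fibroblasts from 16.0 to 3.86 CPM (0.24, 0.14 to 0.40). The part of free epithelial RNA in that fall was not tested.

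**Figure D5:**
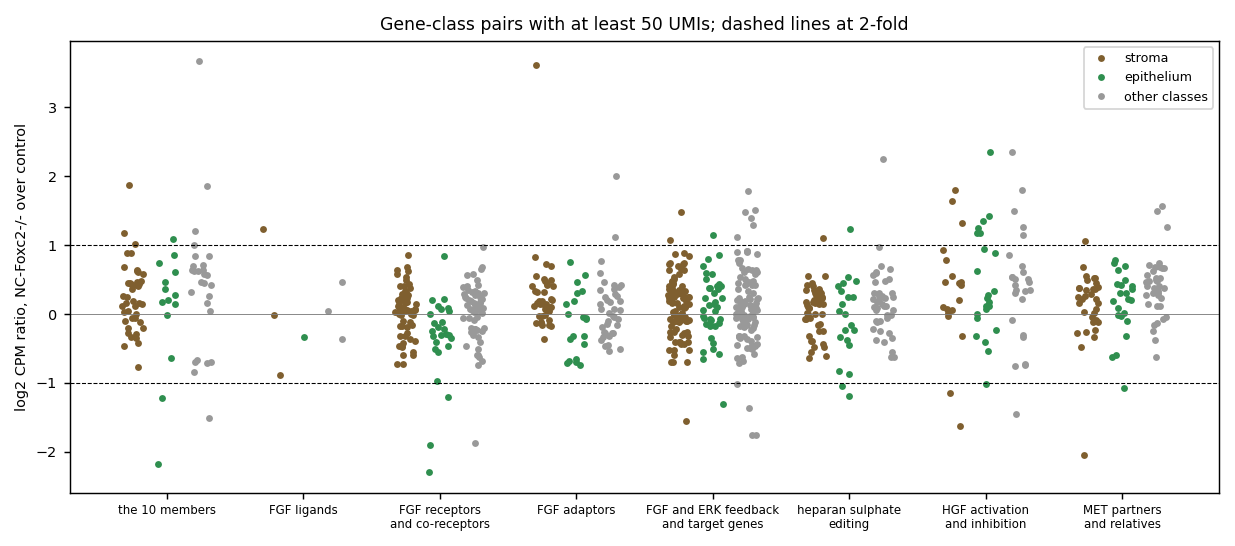
log2 of the CPM ratio NC-Foxc2-/- over control for gene and class pairs with at least 50 UMIs, by list (x axis) and colored by stromal, epithelial and other classes; the dashed lines mark 2-fold, and 5 pairs with no UMI in 1 library are not drawn. Most points of each list lie between the lines, and the list of HGF activation and inhibition has 14 pairs at or above the upper line.

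All 10 genes are protein-coding and lie on GRCm38 (mm10, GENCODE annotation) at chr18:38838673-38929472 for Fgf1, chr3:37348346-37410108 for Fgf2, chr2:126034658-126091185 for Fgf7, chr13:118669791-118792115 for Fgf10, chr11:33117430-33147400 for Fgf18, chr5:16553495-16620152 for Hgf, chr8:25513654-25575718 for Fgfr1, chr7:130162451-133123350 for Fgfr2, chr5:33721674-33737068 for Fgfr3 and chr6:17463800-17573980 for Met. Nudt6, on the opposite strand, overlaps the last 5199 bases of Fgf2, and the noncoding Gm43439 overlaps it on its own strand. The span of Fgfr2 in this annotation is 2961 kb and takes in 14 other protein-coding genes of the same strand, and how far these touch its count was not measured. Counts of the other members share no protein-coding gene of their own strand.

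Over 39 class and library points, the genes of most alike pattern, by Pearson correlation of log2(CPM + 1) among 9390 genes with at least 500 UMIs in each library, were Fstl1 for Fgfr1 (r = 0.965), Twist1 for Fgf18 (0.914), Angpt1 for Hgf (0.902), Col16a1 for Fgf2 (0.896), Omd for Fgf7 (0.894), Fdx1 for Fgfr2 (0.875), Etl4 for Met (0.805), Srpx2 for Fgf10 (0.795), Foxq1 for Fgfr3 (0.762) and Cystm1 for Fgf1 (0.741). Fgfr1 was itself the third of the Fgf18 list, at 0.905. The points of a library share its depth and free RNA, and the 2 points of a class share its cell type, so these values describe likeness only.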

How the data were processed

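Single-cell RNA libraries (10x Genomics 3' chemistry) of the anterior eye segment were made from 1 control and 1 NC-Foxc2-/- pool. The authors aligned reads to mm10 with Cell Ranger 4.0.0, which counts reads on the strand of the transcript, and deposited unnormalized UMI counts per gene and barcode, together with a table of both libraries that was used for each barcode's total and mitochondrial share. The release of the gene annotation used for counting is not stated in the sources.

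Cells over 8% mitochondrial UMIs were removed. Names of meshwork, fibroblast and endothelial cells were taken from the study by matching the normalized values of its source data to the counts, with a tolerance of 0.55 of the last digit, a departure from the planned 0.5. Other classes came from clusters rebuilt with scanpy 1.11.5 and leidenalg 0.10.2 and named by markers, with limits set after the data were seen. Doublets were called with Scrublet in scanpy and kept. No count model was run. Sums of UMIs per class and library gave CPM, with exact Poisson 95% intervals, and ratios with exact conditional binomial (Clopper-Pearson) intervals, tested on simulated data. UMIs of 1 class ranged from 123523 to 38351116, which sets the precision. Calls needed a ratio of CPM values of 2 or more, or of 0.5 or less, and 50 UMIs or more in the libraries together. Shares of cells have exact binomial intervals, also after thinning to 1000 UMIs (seed 1). The members, gene lists and markers were chosen with earlier results of these data known. Pathway genes named are, in each stromal and epithelial class, up to 2 highest and 2 lowest ratios among called genes, and in each list the 2 of highest CPM in stroma, epithelium and endothelium, except those under 2 CPM, some second genes and items that are not reported here. Alternatives were other cell sets, cluster resolutions, totals, UMI minima and folds. Analyses used Python 3.11.15 with NumPy 2.4.6, SciPy 1.17.1, pandas 2.3.3 and matplotlib 3.10.9.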

Additional observations from a re-analysis of the deposited data

Results flagged for a closer look

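Fgfr1 passed 2-fold in opposite directions in 2 epithelial classes: the ratio NC-Foxc2-/- over control was 2.13 in corneal epithelial-like cells and 0.22 in conjunctival epithelial-like cells. The difference between the classes was not tested, since each value is from 1 library per condition. The first rests on 60 and 39 UMIs, and the second on 211 UMIs in control and 2 UMIs in 21 NC-Foxc2-/- cells. In erythrocyte-like cells, which should lack the gene, Fgfr1 was 2.14 and 5.02 CPM, against 2.94 and 6.26 CPM in corneal and 16.3 and 3.60 CPM in conjunctival epithelial-like cells. Dcn moved with both, from 33.8 to 74.3 CPM in corneal and from 329 to 91.8 CPM in conjunctival epithelial-like cells. The part of stromal RNA in these values was not tested.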

How the results depend on the processing

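Of 909 values of the 84 member and class pairs under up to 11 alternatives each, 844 moved by less than their counting interval, 63 moved by more and 2 reversed, both for Fgfr1 in conjunctival epithelial-like cells, whose ratio of 0.221 became 3.48 with each cell thinned to 1000 UMIs and 1.54 as a mean of single-cell CPM. Member pairs numbered 7 higher and 3 lower. The counts became 39 and 31 with no minimum of UMIs, 26 and 10 at a fold of 1.5, 0 and 0 with cells thinned, which leaves fewer pairs at the minimum, 2 higher at a minimum of 200 UMIs and 11 higher at cluster resolution 1.2. Pathway pairs, 34 higher and 23 lower, became 203 and 196 with no minimum, 103 and 60 at a fold of 1.5, 15 and 4 thinned, 14 and 8 at 200 UMIs, and 63 higher at resolution 1.2. The count of 0 receptors higher in endothelium than in stroma became 1 at resolution 0.4, at a fold of 1.5 and with haemoglobin and mitochondrial UMIs left out of the total. It also became 1 with cells joined to the study's names within 0.5 of the last digit and with an unnamed cluster led by Tnc, Mmp3 and Pcolce2 added to the keratocyte-like cells, both chosen after seeing the data. At a fold of 1.5, 2 receptors were higher in epithelium. Leaving out limbal epithelial-like cells, or cells over 1% haemoglobin UMIs, also chosen after seeing the data, left every count within 1.5 times. Over the alternatives, the ratio of Fgf1 in pericyte-like cells ran from 12.1 to 12.9, that of Hgf in fibroblasts from 2.62 to 4.53, and those of Fgf2 from 1.88 to 2.23 in TM-3 and from 1.66 to 2.44 in uveal meshwork, while Fgf18 in macrophage-like cells ran from 1.64 to 2.42 and Met in melanocyte-like cells from 0.352 to 0.710. Fgfr1 in corneal epithelial-like cells ran from 1.95 to 6.12 and Fgfr3 in conjunctival epithelial-like cells from 0.379 to 0.524. Of the 10 called pairs, those of Fgf1, Hgf and Fgf2 in retinal-like cells stayed past 2-fold under every alternative that gave a value, and the other 7 did not. The causes of these shifts were not tested. The mitochondrial limit was not lifted, since cells over it carry no class. No paired analysis was possible because each condition has 1 library. Depth limits pairs under 50 UMIs, and 1 library per condition limits every comparison.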
